A study of Mus musculus with 13 samples.

Results

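Cytochrome c oxidase, complex IV of the mitochondrial respiratory chain, has several small nuclear-encoded subunits that exist as pairs of isoforms made from separate genes. The members described here are the 4 listed pairs of mouse paralogues for subunits 4, 6a, 7a and 8: Cox4i2 and Cox4i1, Cox6a2 and Cox6a1, Cox7a1 and Cox7a2, and Cox8b and Cox8a. They were taken by symbol, and all 8 were present among 19838 genes. In each pair the first named is the tissue-restricted isoform and the second the widely expressed one.

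Complex IV passes electrons from cytochrome c to oxygen and pumps protons across the inner mitochondrial membrane. Its catalytic core is encoded in mitochondrial DNA, and the nuclear subunits around it adjust its activity and assembly. Cox6a2, Cox7a1 and Cox8b are known as the heart and skeletal muscle isoforms, Cox7a1 and Cox8b are also typical of brown fat, and Cox4i2 is known from lung and vascular cells and from the response to low oxygen.

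The study compared mice that carry a transgene for a GFP-tagged, truncated FOXM1 (GFP-FOXM1dNdK tg/+) with mice that lack it (GFP-FOXM1dNdK-/-). All animals carried the Rosa26-rtTA tg/+ driver, were of FVBxC57BL/6 background and were 88 weeks old. RNA came from aorta and from gastrocnemius muscle, and the groups were aorta Rosa26 (4 libraries, without the transgene), aorta dNdK (2), muscle Rosa26 (4) and muscle dNdK (3). The labels name no inducer, sex or sequencing run, and they do not say whether aorta and muscle of 1 mouse were both used, so p-values measure the spread between these libraries.

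The libraries held 3919526 to 13683952 counts in genes. Each targeted transcript was read through an amplicon, so a level is given as the count relative to library size, scaled by TMM over the 13 libraries (CPM below), and is compared between libraries, not between genes: amplicons differ in yield by an unknown factor, and no correction for length applies. The SEs given below are those of the edgeR fits and include the spread between libraries. The floor of 3 counts stood for 0.219 to 0.765 CPM before TMM scaling. Foxm1, the gene of the transgene, had 2 to 24 counts in aorta and 0 to 3 in muscle, too few to check the genotype labels.

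Markers were set against the tissue labels before the isoforms were compared. The 12 fast skeletal muscle genes summed to 238313 to 405595 CPM in muscle and 11.8 to 54.5 CPM in aorta. In aorta, Myh11, a smooth muscle myosin, was at 51.6 to 83.1 CPM, which overlaps 30.3 to 85.7 CPM in muscle, and Cald1, caldesmon, the most abundant gene of the smooth muscle list there, was at 90.6 to 215 CPM, beside 39.0 to 103 CPM in muscle. The 10 listed smooth muscle genes summed to 468 to 717 CPM in aorta and to 6052 to 10079 CPM in muscle. Myh11 and Cald1 made up little of the muscle sum, so it is no measure of smooth muscle RNA there. Of the 9 listed genes tested, 3 were called higher and 3 lower in muscle. Tagln, named after its values were seen, was at or near 0 in every library. All 6 aorta libraries held fat RNA: Ucp1, the uncoupling protein of brown fat, was at 3765 to 6999 CPM, and Fabp4, a fatty acid carrier of adipocytes, at 8769 to 14185 CPM. There were 3 sets of libraries that stood apart in ways that touch the results below. Aorta Rosa26 replicates 1 and 2 and aorta dNdK replicate 2 held heart RNA (12 heart genes summing to 1259 to 3150 CPM, against 3.42 to 12.5 CPM in the other aorta libraries). Muscle dNdK replicate 3 held fat RNA (10 adipocyte genes summing to 15394 CPM, against 742 to 1517 CPM in the other muscle libraries). In aorta Rosa26 replicates 3 and 4 and muscle Rosa26 1 and 4 and dNdK 1 and 3 the reads of single genes were split unevenly between the strands: the SD over genes of the share on the first strand was 12.2 to 18.2 percentage points, against 4.83 to 8.77 points in the other 7. Both aorta libraries of that set are Rosa26. In such bulk samples, fewer cells of a type and less RNA per cell cannot be told apart.

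Which isoforms separated the tissues was asked first. Cox6a2 was the only member higher in muscle, and its partner Cox6a1 was the member with the steepest drop. Both genes of the subunit 6a pair thus differed between the tissues in opposite directions. Cox8a, Cox8b and Cox4i1 were also lower in muscle. Cox4i2, Cox7a1 and Cox7a2 did not pass the test. By the edgeR quasi-likelihood test with Benjamini-Hochberg adjustment over all genes at 0.05, 1 of 8 members was higher and 4 were lower in muscle, beside 27.1% of 12318 tested genes higher and 29.0% lower (56.1% in all). The median log2 fold change of the 8 was -0.76, beside -0.15 over all genes tested. Levels of the 2 tissues did not overlap for 5 members, as for 30.5% of all genes. Muscle RNA is dominated by few transcripts, and scaling by library size alone moved the median of all genes to -0.88 and the split of calls from 3341 higher and 3572 lower to 1579 higher and 6894 lower. Under that scaling Cox4i2, Cox7a1 and Cox7a2 were also called lower in muscle (log2 fold changes -1.5, -1.15 and -1.27).

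**Figure D1:**
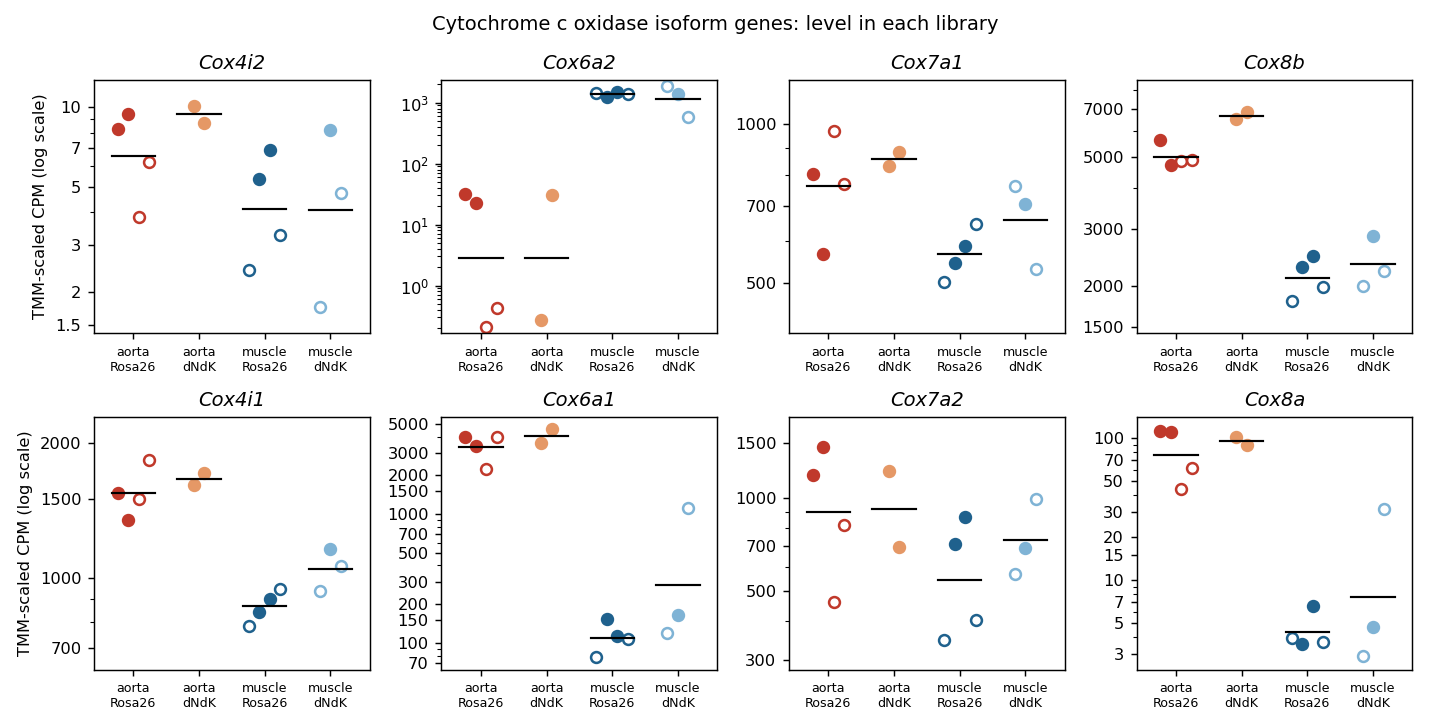
Level of each isoform gene in each library, in TMM-scaled CPM on a log axis, with the restricted isoforms in the upper row and the widely expressed partners in the lower row. Points are single libraries, open where the strands were uneven, and lines are geometric means of a group. Cox6a2 rises from at most 32.2 CPM in aorta to at least 575 CPM in muscle, and Cox6a1 and Cox8a of muscle dNdK replicate 3 sit above all other muscle libraries.

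Cox6a2 encodes the heart and muscle form of subunit 6a, which is known to bind ADP and ATP and to set the efficiency of the complex. It was at 1444, 1251, 1505 and 1410.2 CPM in the Rosa26 libraries of muscle, with 1884, 1362 and 575 CPM in those of dNdK. In aorta it fell into separate sets: 32.2, 22.9 and 30.04 CPM (437, 417 and 398 counts) in Rosa26 1, Rosa26 2 and dNdK 2, and 0.209, 0.427 and 0.277 CPM (3, 2 and 3 counts, at the floor) in Rosa26 3, Rosa26 4 and dNdK 1. The first set is the 3 libraries with heart RNA. There Myh6, the atrial and adult mouse heart myosin, was at 654, 268 and 553 CPM and Actc1, cardiac actin, at 969, 420 and 955 CPM, while in the other 3 Myh6 was at most 1.47 CPM and Actc1 at most 3.63 CPM. Ckm, the muscle creatine kinase that heart also makes, was at 33.5, 18.4 and 41.6 CPM in the first set and at most 0.461 CPM in the second, while the other 11 fast skeletal muscle genes summed to 9.96 to 21.0 CPM in the first and 11.6 to 17.5 CPM in the second. The part of heart RNA in the Cox6a2 reads was not tested. Over all 13 libraries Cox6a2 was 91.0-fold higher in muscle (log2 fold change 6.51, SE 1.34, adjusted p = 0.00114, edgeR). Without the 3 libraries with heart RNA the log2 fold change was 12.18 (SE 0.71), against aorta libraries that hold 2 or 3 counts each, so its size depends on very few reads. Cox6a2 overlaps Itgad, an integrin gene, and shares over 50 bases of transcript with it.

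Cox6a1, the widely expressed form, was at 3964, 3401, 2234 and 3939 CPM in the aorta of Rosa26 mice, and the 2 dNdK libraries of aorta had 3579 and 4548 CPM. Muscle values were 77.5, 155, 113 and 107 CPM for Rosa26 and 120.05, 165 and 1124 CPM for dNdK. The tissues did not overlap, and muscle dNdK 3 stood far above the other 6 muscle libraries. The difference was 16.1-fold (log2 fold change -4.01, SE 0.50, adjusted p = 2.19e-05, edgeR), and 28.8-fold without that library (log2 fold change -4.85, SE 0.29). Cox6a1 shares a stretch of at least 50 bases with 1 processed pseudogene outside the table, so a read from that stretch could come from either.

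The ratio of both isoforms within a library needs no scaling between libraries. Cox6a2 per Cox6a1 read was 0.00813, 0.00675, 0.000109 and 0.000136 in aorta Rosa26 and 9.015e-05 and 0.00661 in aorta dNdK. In muscle it was 18.6, 8.08, 13.3 and 13.2 in Rosa26 and 15.7, 8.23 and 0.512 in dNdK. All muscle libraries were above all aorta libraries, and only dNdK 3 of the muscle libraries had fewer Cox6a2 than Cox6a1 reads. The mean log2 ratio, with 0.5 added to each count, differed by 13.03 between the tissues (exact permutation test within genotype, two-sided, p = 0.001429, the smallest that 700 arrangements allow, adjusted p = 0.0229 over 16 ratio tests). Leaving out any 1 library gave 11.5 to 14.6. The adjusted p was 0.0571 without muscle dNdK 1 or without muscle dNdK 2, and within the threshold in the other 11 cases. Over the 4 pairs of libraries that share a number in their deposited names, an alternative chosen after seeing the data, the ratio was higher in muscle in 4 of 4 by a mean of 14.27 (exact sign-flip permutation test, two-sided, p = 0.125, the smallest it allows, adjusted p = 0.25), so this test cannot pass the threshold.

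**Figure D2:**
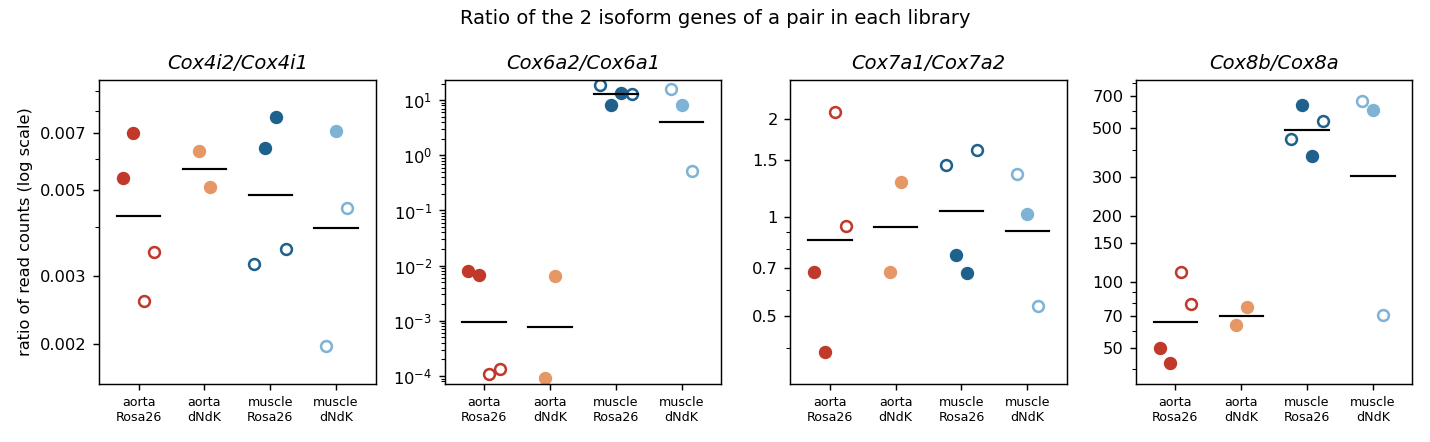
Ratio of reads of the restricted isoform to reads of the widely expressed one in each library, on a log axis, with a panel for each pair. Points are single libraries, open where the strands were uneven, and lines are geometric means of a group. The subunit 6a ratio is 0.512 to 18.6 in muscle and at most 0.00813 in aorta, the subunit 8 ratio of muscle dNdK replicate 3 (70.3) lies among the aorta libraries, and the tissues overlap for subunits 4 and 7a.

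Cox8a and Cox8b encode the smallest subunit. Cox8a, the widely expressed form, was at 113, 109.6, 43.8 and 61.8 CPM in the 4 Rosa26 libraries of aorta, with 102 and 89.2 CPM in the 2 of dNdK. The 4 Rosa26 libraries of muscle had 3.92, 3.56, 6.57 and 3.65 CPM and the 3 dNdK libraries 2.92, 4.67 and 31.8 CPM, so that dNdK 3 again stood above the rest (403 counts against 15 to 67). The difference was 11.4-fold (log2 fold change -3.51, SE 0.49, adjusted p = 6.3e-05, edgeR), and 21.0-fold without that library (log2 fold change -4.39, SE 0.34).

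Cox8b, the heart, muscle and brown fat form, was higher in aorta than in muscle. It was at 5610.3, 4706, 4848 and 4880.4 CPM in the aorta of Rosa26 mice, and the 2 dNdK libraries of aorta had 6493 and 6864 CPM. Muscle values were 1803, 2302, 2483 and 1994 CPM for Rosa26 and 2002.5, 2856 and 2238 CPM for dNdK. The tissues did not overlap (2.57-fold, log2 fold change -1.36, SE 0.17, adjusted p = 2.36e-05, edgeR). The aorta libraries were those with Ucp1 at 3765 CPM or more. In them 10 brown fat genes summed to 5667 to 8685 CPM, beside 87.8 to 1261 CPM in muscle. Ucp1 was a large part of the aortic sum. Of the 8 brown fat genes tested, 7 were called lower and 1 higher in muscle, beside 29.0% and 27.1% of all genes. Within aorta the brown fat sum was highest in Rosa26 3 and 4 (8685 and 8369 CPM). Cox8b was highest in dNdK 1 and 2, where that sum was 7239 and 6914 CPM. Muscle dNdK 3, with the sum of 1261 CPM, had Cox8b within the range of the other muscle libraries. How much of the aortic Cox8b came from fat was not tested.

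Cox8b per Cox8a read was 49.7, 42.9, 110.5 and 78.9 in aorta Rosa26 and 63.8 and 76.9 in aorta dNdK. In muscle it was 449, 637.5, 375 and 537 in Rosa26 and 664, 603 and 70.3 in dNdK. Both genes were lower in muscle, Cox8a more so, and dNdK 3 was the 1 muscle library within the range of aorta. The mean log2 ratio was higher in muscle by 2.51 (exact permutation p = 0.00714, adjusted p = 0.0571), which missed the threshold. Of 21 alternatives only 3 were within the threshold. Without muscle dNdK 3 the ratio was higher by 3.04 (exact permutation p = 0.00476, adjusted p = 0.0286). With reads of the first strand alone it was higher by 2.82 (exact permutation, adjusted p = 0.0457), and with those of the second by 2.09 (adjusted p = 0.126). Without aorta dNdK 2 it was higher by 2.58, and without the 3 aorta libraries with heart RNA by 2.32, each with 1 aorta dNdK library left. In the 4 pairs of libraries with a shared number it was higher in muscle in 4 of 4, by 0.14 to 2.92 with a mean of 1.96 (exact sign-flip permutation p = 0.125, again the smallest possible, adjusted p = 0.25).

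Muscle dNdK 3 was also the library with fat RNA. There Ucp1 was at 756 CPM, Adipoq, an adipocyte hormone, at 139 CPM and Fabp4 at 7342 CPM. In the other 6 muscle libraries Ucp1 was at 0.374 to 7.78 CPM, Adipoq at 0.973 to 9.001 CPM and Fabp4 at 242 to 680 CPM. Its 10 brown fat genes summed to 1261 CPM, with 8 above the floor and Cpt1b at 0, against 87.8 to 179 CPM elsewhere. The same library had the lowest Cox6a2 of the muscle libraries, 575 CPM, and the lowest sum of fast skeletal muscle genes. Its part in the tissue and genotype values is given by the values without it.

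**Figure D3:**
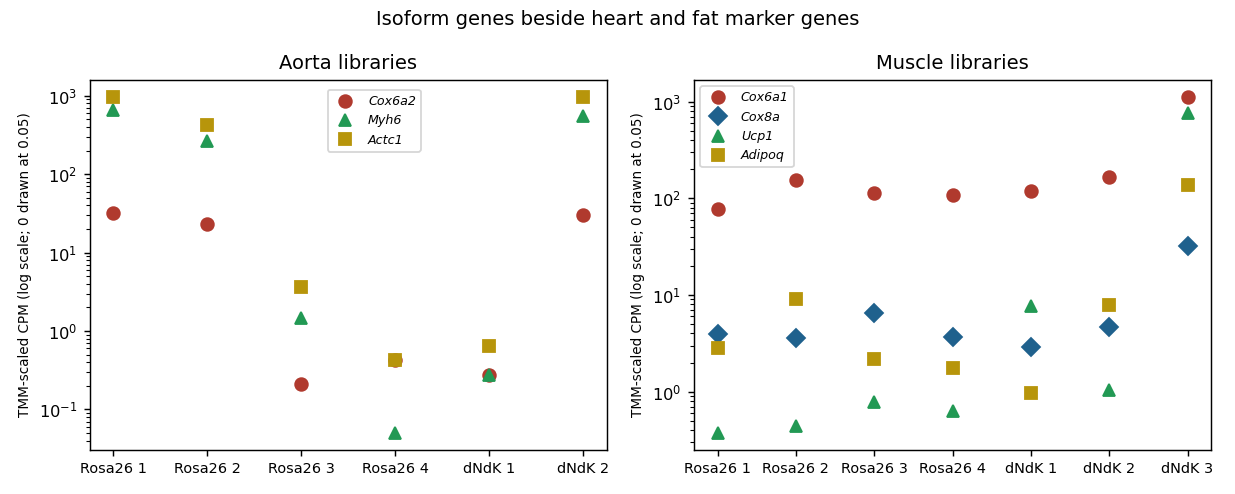
Isoform genes beside marker genes in single libraries, in TMM-scaled CPM on log axes, with 0 drawn at 0.05. In aorta, left, Cox6a2 is 22.9 to 32.2 CPM in the 3 libraries where the heart genes Myh6 and Actc1 are at 268 CPM or more. In muscle, right, Cox6a1 (1124 CPM) and Cox8a (31.8 CPM) are highest in dNdK replicate 3, where the fat genes Ucp1 and Adipoq are also highest.

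Cox4i1 is the widely expressed form of subunit 4, an early partner of the catalytic core during assembly and a site where ATP is known to regulate the enzyme. It was at 1548, 1349, 1496 and 1827 CPM in the 4 Rosa26 libraries of aorta, with 1614 and 1714 CPM in the 2 of dNdK. The 4 Rosa26 libraries of muscle had 781, 842, 898 and 947 CPM and the 3 dNdK libraries 936, 1160.1 and 1064 CPM. The tissues did not overlap, and the difference was 1.68-fold (log2 fold change -0.75, SE 0.15, adjusted p = 0.000962, edgeR). Within genotypes the log2 fold change was -0.84 in Rosa26 (adjusted p = 0.00215) and -0.66 in dNdK (adjusted p = 0.0557). Transcripts of Emc8, Gcn1l1 and Ttc25 share at least 50 bases with those of Cox4i1.

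Cox4i2 was read at low depth, with 9 to 172 counts per library. It was at 8.25, 9.45, 3.84 and 6.20 CPM in the aorta of Rosa26 mice, and the 2 dNdK libraries of aorta had 10.1 and 8.68 CPM. Muscle values were 2.43, 5.33, 6.86 and 3.27 CPM for Rosa26 and 1.75, 8.18 and 4.73 CPM for dNdK. The tissues overlapped, and the log2 fold change of -0.77 (SE 0.36) had an adjusted p of 0.0842 (edgeR). With reads of the first strand alone it was called lower in muscle (-0.87, adjusted p = 0.0404, edgeR), and with those of the second it was not (-0.71, adjusted p = 0.301). Cox4i2 overlaps Bcl2l1, an apoptosis regulator, and where the amplicon lies was not given in the sources used here.

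The Cox4i2 values followed the strand balance of the library within both tissues. In aorta the libraries with uneven strands had 3.84 and 6.20 CPM and the others 8.25 to 10.1 CPM. In muscle they had 1.75 to 4.73 CPM and the others 5.33 to 8.18 CPM. Cox4i1, Cox6a1, Cox6a2, Cox7a1 and Cox7a2 overlapped between these sets in both tissues. Cox8a overlapped in muscle but not in aorta, with 43.8 and 61.8 CPM in the uneven libraries against 89.2 to 113 CPM. Cox8b overlapped in aorta but not in muscle (1803 to 2238 against 2302 to 2856 CPM). The Cox8b to Cox8a ratio did not overlap in aorta (78.9 and 110.5 in the uneven libraries against 42.9 to 76.9). Cox5b, a zinc-binding subunit of the same complex with far more reads, had 157 and 222 CPM against 1242 to 1876 CPM in aorta, and 129 to 324 CPM against 978 to 1213 CPM in muscle. This split was seen after the values were known, and its part in the Cox4i2 result was not tested beyond adding it to the fit. Leaving out muscle dNdK 2 alone brought the tissue difference of Cox4i2 to -1.05 (adjusted p = 0.0283, edgeR). With the strand set as a covariate, the difference was -0.50 (SE 0.26, adjusted p = 0.115, edgeR).

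**Figure D4:**
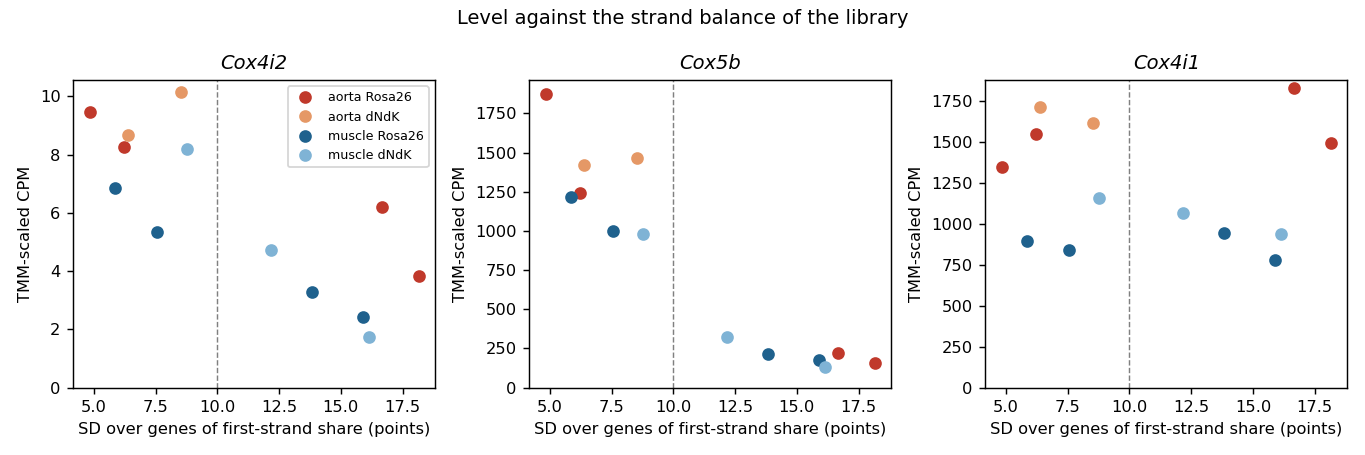
Level of Cox4i2, Cox5b and Cox4i1 in each library (TMM-scaled CPM, linear axes from 0) against the SD over genes of the share of reads on the first strand, in percentage points. Points are single libraries coloured by group, and the dashed line marks 10 points. Cox4i2 is at most 6.20 CPM and Cox5b at most 324 CPM to the right of the line, while Cox4i1 separates by tissue.

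Cox4i2 per Cox4i1 read ran from 0.00259 to 0.00703 in aorta and from 0.00197 to 0.00769 in muscle. The tissues overlapped, and the mean log2 ratio differed by -0.16 (exact permutation p = 0.751, adjusted p = 0.882). Within the libraries of even strands the difference was 0.26. Within the uneven Rosa26 libraries it was 0.17, and dNdK did not enter there because no aorta dNdK library was uneven. Both values were of the opposite sign. Libraries of even strands held 0.00509 to 0.00703 in aorta and 0.00640 to 0.00769 in muscle. The uneven ones of both genotypes held 0.00259 to 0.00345 and 0.00197 to 0.00449. Neither within-set value can pass the threshold, since the smallest p allowed is 0.0556 and 0.167.

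Cox7a1 and Cox7a2 encode the heart, muscle and brown fat form and the widely expressed form of subunit 7a, which sits where complex IV can join other respiratory complexes. Cox7a1 was at 805, 567, 969 and 769 CPM in the 4 Rosa26 libraries of aorta, with 832 and 886 CPM in the 2 of dNdK. The 4 Rosa26 libraries of muscle had 502, 544, 587 and 647 CPM and the 3 dNdK libraries 764, 705 and 531 CPM. The tissues overlapped, and the log2 fold change was -0.41 (SE 0.17, adjusted p = 0.0588, edgeR). The call was close to the threshold: limma-voom, DESeq2 and the strand covariate called it with log2 fold changes of -0.41, -0.41 and -0.44, as did the edgeR test without aorta Rosa26 2 (-0.47) or without muscle dNdK 1 (-0.46).

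Cox7a2 was at 1183, 1463, 461 and 818 CPM in the aorta of Rosa26 mice, and the 2 dNdK libraries of aorta had 1222 and 694 CPM. Muscle values were 347, 711, 868 and 403 CPM for Rosa26 and 565, 690.1 and 990.4 CPM for dNdK. Its spread within a group was wide (SD of 29.2% to 44.4% of the mean), and the log2 fold change between tissues was -0.55 (SE 0.32, adjusted p = 0.151, edgeR). Cox7a2 overlaps Tmem30a, a flippase subunit gene. The ratio of Cox7a1 to Cox7a2 was 0.387 to 2.10 in aorta and 0.536 to 1.61 in muscle, a difference in mean log2 ratio of 0.13 (exact permutation p = 0.753, adjusted p = 0.882).

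Genotype was compared within each tissue. In aorta 0 of 8 members passed the edgeR test. It called 1 of 11920 genes (0.00839%), with 713 at an unadjusted p under 0.05, and DESeq2 called 13. Cox8b was the 1 member whose groups did not overlap, 4706 to 5610.3 CPM in Rosa26 and 6493 and 6864 CPM in dNdK, as for 17.4% of all genes. Its log2 fold change was 0.41 (SE 0.21, adjusted p = 0.757, edgeR). The log2 fold changes of the other 7 ran from -0.04 (Cox7a2, SE 0.46) to 0.43 (Cox4i2, SE 0.40). For Cox6a2 the SE was 1.71, and each genotype held libraries with and without heart RNA.

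In muscle 0 of 8 members passed the edgeR test, which called 0 of 10491 genes (0%). At an unadjusted p under 0.05 there were 792 genes, and DESeq2 called 7. No member had groups that did not overlap, beside 5.97% of all genes. Cox6a1 had a log2 fold change of 2.08 (SE 0.69, adjusted p = 0.656) and Cox8a of 1.61 (SE 0.72, adjusted p = 0.656), both through dNdK 3. Without that library they were 0.34 (SE 0.29, adjusted p = 0.973) and -0.21 (SE 0.45, adjusted p = 0.985, edgeR). The other 6 members lay between -0.12 (Cox6a2, SE 0.34) and 0.38 (Cox7a2, SE 0.35).

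The genotype differences of the log2 pair ratios ran from -0.30 (Cox6a2 to Cox6a1) to 0.40 (Cox4i2 to Cox4i1) in aorta, where 15 arrangements allow no p below 0.0667. In muscle they ran from -1.65 (Cox6a2 to Cox6a1) to -0.21 (Cox7a1 to Cox7a2). The adjusted p of the exact permutation tests was at least 0.882 in all 8. Without muscle dNdK 3 the subunit 6a difference in muscle was -0.16 and that of subunit 8 changed from -0.69 to 0.37.

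Whether the genotype difference depended on the tissue was tested directly. 0 of 8 members passed the interaction test of edgeR, as 0 of 12318 genes did (0%), with 1044 at an unadjusted p under 0.05 and 6 called by DESeq2. The largest estimate was that of Cox6a1, 1.79 (SE 0.93, adjusted p = 0.602), which was 0.05 (SE 0.46) without muscle dNdK 3. The interactions of the 4 pair ratios ran from -1.35 (subunit 6a) to -0.35 (subunit 7a), each with an adjusted p of 0.882 by the exact permutation test. On simulated counts with the same libraries, edgeR recovered 46.5% of 4-fold changes in aorta, 73.5% in muscle and 79.0% between tissues, but 1.01%, 4.08% and 21.0% of 2-fold changes, and 8.08% and 0% in the interaction. The changed genes were drawn at random, so a 2-fold genotype effect on such a gene would mostly have been missed. Rates for the single isoforms were not worked out. In the tissue simulation 100 genes were changed 2-fold, 100 were changed 4-fold and 12009 were unchanged, while 56.1% of genes were called in the data. Its rates need not hold for the real tissue comparison.

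The tissue differences were present in both genotypes for Cox6a1, Cox6a2, Cox8a and Cox8b. The log2 fold changes in Rosa26 and dNdK were -4.90 and -3.11 for Cox6a1, 6.63 and 6.39 for Cox6a2, -4.20 and -2.82 for Cox8a, and -1.22 and -1.5 for Cox8b. All 8 of these tests passed (adjusted p at most 0.00188 in Rosa26 and at most 0.0307 in dNdK, edgeR), beside 55.1% and 27.1% of all genes.

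The other subunits of complex IV give a frame for the isoforms. Of 12 listed genes 11 were in the table (Cox7b was not analysed here), 7 had enough reads to test, and Cox7b2, Cox7c, Cox7a2l and Cox8c had 0 or 1 count per library. In muscle 3 of 7 were lower and 0 higher, beside 29.0% and 27.1% of all genes, with a median log2 fold change of -0.90 beside -0.15 over all genes. Cox6b2, known from testis, had a log2 fold change of -3.02 (SE 0.39), Cox6c of -1.98 (SE 0.29) and Cox6b1, which joins the monomers of the enzyme, of -0.89 (SE 0.17). Cox6b2 was at 0.377 to 3.39 CPM in muscle and at 4.19 to 16.8 CPM in aorta. Cox5a (-0.42, adjusted p = 0.0501), Ndufa4 (-0.43, adjusted p = 0.053), Ndufa4l2 (-0.42, adjusted p = 0.151) and Cox5b (-1.01, adjusted p = 0.223) were not called. In 24 alternatives Cox5a was called lower in 5 and Ndufa4 in 6. With 4 pairs of libraries blocked by the number in their deposited names, Cox5b was called lower in muscle (-1.08, adjusted p = 0.00861, edgeR). The estimates for Cox6a1 and Cox8a were farther below 0 than each of these 7, though differences between genes were not tested, and Cox6a2 was the only tested subunit gene higher in muscle.

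**Figure D5:**
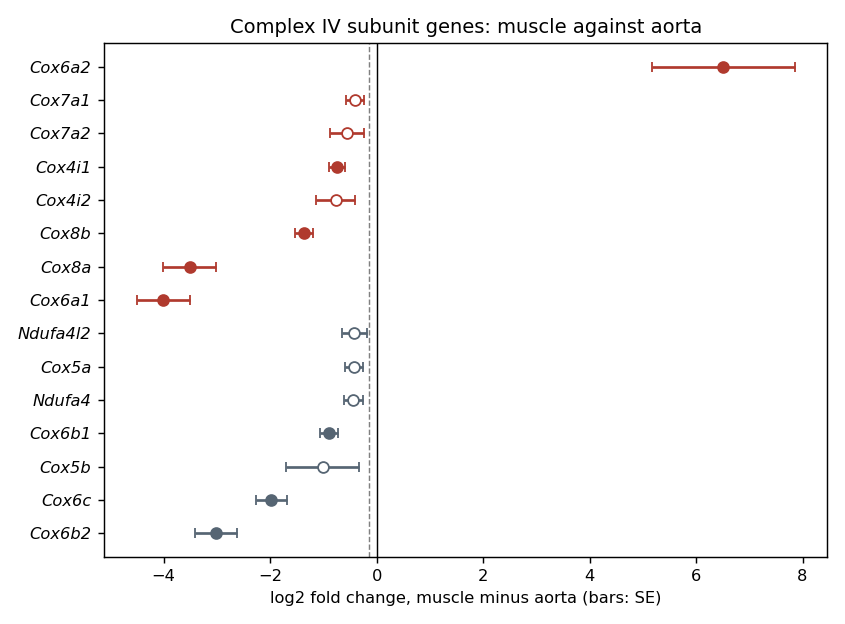
Log2 fold change of muscle minus aorta for the 8 isoform genes (red) and 7 other complex IV subunit genes (grey), with bars of 1 SE from the edgeR fit. Filled points passed an adjusted p of 0.05, and the dashed line is the median of all genes tested (-0.15). Cox6a2 (6.51) is alone on the right, and Cox6a1 (-4.01) and Cox8a (-3.51) lie farthest to the left.

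Among 26 genes of complex IV assembly and copper delivery, 21 were tested, 4 were higher and 5 lower in muscle, beside 27.1% and 29.0% of all genes, and the median was -0.12. The 4 with the smallest p were Cox19 (-1.39, SE 0.18), which carries copper, Cox14 (1.31, SE 0.20), which acts on the newly made core subunit, Cox11 (1.17, SE 0.23), which delivers copper to the core, and Sco1 (-0.98, SE 0.23), a copper chaperone. Cox11 lost its call with scaling by library size alone (0.43, adjusted p = 0.085, edgeR), and Sco1 with the blocked pairs of libraries (-0.67, adjusted p = 0.0788, edgeR). Of 5 regulators listed for Cox4i2, Cxxc5, which is known to repress it, was higher in muscle (1.16, SE 0.16, adjusted p = 4.68e-05). Lonp1, a mitochondrial protease known to degrade the subunit 4 isoform of Cox4i1, was lower (-0.64, SE 0.19, adjusted p = 0.0118). Hif1a, the oxygen-responsive transcription factor, had -0.31 (SE 0.24, adjusted p = 0.288), and Rbpj and Chchd2 had at most 1 count per library.

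The genes nearest to each restricted isoform in mean-centred log2 profile over the 13 libraries were taken by root mean square difference among 12317 genes. For Cox6a2 they were Tacc2 (0.39), Art1 (0.42) and Apobec2 (0.47), each at 13.3 CPM or less in aorta and at 193 CPM or more in muscle. For Cox8b they were Mrpl39, Dlst and Phyh (0.19 each). For Cox7a1 they were Trim3 (0.16), Seh1l (0.16) and Ddrgk1 (0.17), and for Cox4i2 Gabpa (0.24), Lcorl (0.24) and Sucla2 (0.26). In these orders the partner was at rank 12170 for Cox6a1 beside Cox6a2, 10609 for Cox8a beside Cox8b, 5227 for Cox7a2 beside Cox7a1 and 684 for Cox4i1 beside Cox4i2.

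The partners of a pair are distinct in sequence: the longest stretch of bases shared by their transcripts was 14 for subunit 4, 12 for subunits 6a and 7a and 11 for subunit 8. No pair has both genes on 1 chromosome of GRCm38.p6. Cox4i1 lies at chr8:120668225-120674209 and Cox4i2 at chr2:152753916-152765039, both on the plus strand. Cox6a1 (chr5:115345652-115348958) and Cox6a2 (chr7:128205435-128206366) are on the minus strand. Cox7a1 (chr7:30184171-30186030) is on the plus strand and Cox7a2 (chr9:79755241-79771422) on the minus strand. Cox8a (chr19:7215158-7217616) and Cox8b (chr7:140898942-140900446) are on the minus strand.

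RefSeq promoters of that build, from 250 bases before to 50 after the start, were at hand for 5 of 8 members. Those of Cox6a1 and Cox8a are shown because both genes fell steeply in muscle, and that of Cox8b because it belongs to a restricted isoform of one of these pairs. Capitals mark the letters searched: CCGGAAG (an ETS core), the NRF1 motif, GGGCGG (SP1), CAGCTG (an E-box) and TATAAA, on either strand and none overlapping another.
Cox6a1, chr5:115348909-115349208, minus strand: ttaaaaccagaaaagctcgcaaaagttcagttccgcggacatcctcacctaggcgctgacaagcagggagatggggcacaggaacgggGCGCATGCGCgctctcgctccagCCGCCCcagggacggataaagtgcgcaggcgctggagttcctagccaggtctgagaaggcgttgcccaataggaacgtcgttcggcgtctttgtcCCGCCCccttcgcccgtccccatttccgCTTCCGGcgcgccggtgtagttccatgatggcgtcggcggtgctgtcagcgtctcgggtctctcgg
Cox8a, chr19:7217567-7217866, minus strand: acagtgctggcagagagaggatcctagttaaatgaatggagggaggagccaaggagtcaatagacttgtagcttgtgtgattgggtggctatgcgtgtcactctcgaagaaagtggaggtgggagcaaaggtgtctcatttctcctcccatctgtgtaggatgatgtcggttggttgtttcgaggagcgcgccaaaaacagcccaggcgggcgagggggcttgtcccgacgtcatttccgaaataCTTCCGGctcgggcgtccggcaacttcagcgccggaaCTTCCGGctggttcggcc
Cox8b, chr7:140900397-140900696, minus strand: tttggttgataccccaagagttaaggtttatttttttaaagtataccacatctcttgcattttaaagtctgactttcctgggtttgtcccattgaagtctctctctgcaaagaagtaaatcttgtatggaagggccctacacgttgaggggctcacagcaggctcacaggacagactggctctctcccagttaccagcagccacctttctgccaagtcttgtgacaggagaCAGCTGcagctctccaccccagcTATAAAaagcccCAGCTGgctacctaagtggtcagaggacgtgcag

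CCGGAAG stood at -16 to -10 in Cox6a1 and at -5 to 2 and 33 to 39 in Cox8a, counted from the start, and in 8.86% of 32851 promoters of the same length. The NRF1 motif was in Cox6a1 alone of the 5, at -162 to -153, and in 0.971% of promoters. GGGCGG was in Cox6a1 and Cox7a2 and in 35.7% of promoters. CAGCTG was at -19 to -14 and 17 to 22 in Cox8b (16.3% of promoters) and TATAAA at 5 to 10 (13.6%). The MEF2 motif (3.19%) and TNAAGGTCA (ERR, 1.28%) matched none of the 5 windows. The number of CpG pairs was 32 in Cox6a1, 20 in Cox7a2 and 19 in Cox8a, the widely expressed isoforms, and 7 in Cox7a1 and 2 in Cox8b, beside a median of 7 over all promoters. A match describes these letters and is no evidence of binding.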

How the data were processed

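RNA of 6 aorta and 7 gastrocnemius libraries was reverse transcribed, amplified with a mouse transcriptome primer pool and read on an Ion Torrent sequencer, per the labels' protocols. The deposited tables hold raw counts per gene, made by the authors with STAR 2.5.2b on mm10 (GRCm38.p6), per the submitters' processing notes, which also name edgeR 3.28.1 and limma 3.42.2. The column of counts on either strand was used here. Depth was 3919526 to 13683952 gene counts, without molecular identifiers.

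All genes were fitted in R 4.3.3 with the quasi-likelihood test of edgeR 4.0.16 (TMM, filterByExpr at min.count 10, Benjamini-Hochberg over all genes tested, threshold 0.05): genotype in each tissue alone, and tissue and interaction over 4 groups of all 13 libraries. Log2 ratios of counts plus 0.5 were tested by exact two-sided permutation, adjusted over 16 tests. Alternatives were other scalings, no filter, DESeq2 1.42.0, limma-voom (limma 3.58.1), each strand column, other pseudocounts, blocks, leaving out each library, and leaving out the 3 aorta libraries with heart RNA; the split by strand balance (SD above 10 points, over genes with at least 500 counts) was chosen after seeing the data. The script was tested on simulated counts.

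The 4 numbers that occur in the deposited names of both tissues were checked as pairs: deviations from group means correlated at 0.138 to 0.275 over genes in all 4, so they were used as a block in an alternative, and for the ratios in an exact sign-flip test added after seeing the data; the labels do not say that they are animals. 3 of the 4 pairs also share a strand balance. Aorta and muscle libraries with the same replicate number of the labels correlated at -0.257 to 0.285, so a correlation of this size does not by itself mark a pair.

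The members and gene lists were chosen with earlier results of these data known. Named beside the 8 members are all other complex IV subunits and listed Cox4i2 regulators. The 4 assembly genes with the smallest p between tissues and the 3 nearest profiles of each restricted isoform are named too. From marker lists come the first gene or the most abundant one in the tissue described, with Tagln and Cpt1b besides. Genes that overlap a member or share sequence with it complete the set.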

Additional observations from a re-analysis of the deposited data

Results flagged for a closer look

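Of 24 checks of groups of 4 libraries for a value far from the others, 1 was flagged. Cox8a in muscle Rosa26 replicate 3 was at 6.57 CPM (67 counts), beside 3.56 to 3.92 CPM in the other 3 libraries of the group. The gap was 0.878 of the group's range. About 1 in 20 such groups is flagged by chance.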

How the results depend on the processing

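The tissue differences of Cox6a1, Cox6a2, Cox8a, Cox8b and Cox4i1 kept their direction and call in all 24 alternatives of the gene fit. No genotype or interaction value of a member was called in any alternative that gave an adjusted p. DESeq2 gave none for genotype of Cox6a1 in muscle (log2 fold change 2.05, SE 0.87). Cox6a2 was not among the genes tested for genotype in aorta without the heart RNA libraries. For genotype in aorta DESeq2 called 13 genes, each strand column 0, leaving out the heart RNA libraries 30 and the strand covariate 3. DESeq2 gave 7 in muscle and 6 in the interaction. Leaving out 1 library gave 0 to 1 calls in aorta, 0 to 3 in muscle, 5674 to 6943 between tissues and 0 in the interaction. Depth limits Cox4i2 (9 to 172 counts), Cox8a in muscle and Cox6a2 in the 3 aorta libraries at 2 or 3 counts. The cause of a change was not tested.

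The replicate numbers of the labels gave correlations of mixed sign. Same-numbered libraries of both genotypes correlated in their deviations at -0.335 and 0.183 in aorta and at 0.131, -0.102 and -0.00223 in muscle. Same-numbered aorta and muscle libraries did so at -0.248, 0.285, -0.257 and 0.227 in Rosa26 and at -0.0247 and 0.133 in dNdK. With the replicate numbers as a block, 163 genes were called in aorta, 0 in muscle, 6625 between tissues and 0 in the interaction. The replicate block turned the uncalled aortic genotype values of Cox6a2 (-2.18) and Cox8a (-0.23) and the muscle value of Cox4i2 (-0.08). The block of the deposited numbers called 5140 genes between tissues, turned Hif1a (0.29) and changed no member's call. Its dNdK part rests on a single pair, aorta dNdK 1 with muscle dNdK 3, the muscle library with fat RNA.

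Of the uncalled genotype values in aorta, library size alone turned Cox4i1 (-0.03) and Cox6a2 (-0.09), limma-voom Cox6a2 (-0.29) and Cox7a2 (0.03), the first strand column Cox6a1 (-0.11), the second Cox6a2 (-0.08) and Cox7a2 (0.00), the strand covariate Cox6a2 (-0.88) and Cox8a (-0.23), and leaving out the heart RNA libraries Cox4i1 (-0.01), Cox7a1 (-0.03) and Cox7a2 (0.96). In muscle the second strand column turned Cox4i2 (-0.15) and the first Cox6a2 (0.07). In the interaction the first strand column turned Cox4i2 (0.51) and Cox8b (0.09), the strand covariate Cox4i2 (0.30) and Cox6a2 (0.05), library size alone Cox6a2 (0.04) and Cox8b (0.00), and leaving out the heart RNA libraries Cox7a2 (-0.57). That last setting turned Cox5b between tissues (0.09).

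Of the log2 pair ratios between tissues, leaving out the heart RNA libraries gave 0.02 for subunit 4, 16.06 for 6a and -0.01 for 7a. The 6a difference lost its call there and within the uneven (16.97, Rosa26 alone) and even (11.91) libraries. Within the uneven and even sets the smallest p allowed is 0.167 and 0.0556, so neither set can pass the threshold. Leaving out the heart RNA libraries kept a single aorta dNdK library. Subunit 4 turned in both sets (0.17 and 0.26). Over the pairs of deposited numbers, as a replicate block chosen after seeing the data, the mean differences were 0.09 (subunit 4, turned), 14.27 (6a, call lost), -0.03 (7a, turned) and 1.96 (8), and the smallest p allowed, 0.125, cannot pass. The first strand column brought subunit 8 (2.82) within the threshold. Of the uncalled genotype ratios in aorta, the first strand column turned subunits 4 (-0.13), 6a (0.82), 7a (-0.01) and 8 (-0.01), the even libraries subunit 4 (-0.11), and leaving out the heart RNA libraries 7a (-1.05) and 8 (-0.55). In muscle the first strand column turned subunit 4 (0.25) and the even libraries 4 (0.02), 7a (0.51) and 8 (0.30). In the interaction the first strand column turned subunit 4 (0.38), the second 6a (1.31), and leaving out the heart RNA libraries 7a (0.83).

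Leaving out 1 library, the tissue ratios ran from -0.37 to 0.09 (subunit 4), 11.5 to 14.6 (6a), -0.10 to 0.36 (7a) and 2.23 to 3.04 (8). The genotype ratios in aorta ran from 0.16 to 0.64, -3.40 to 2.80, -0.32 to 0.59 and -0.11 to 0.34 in that order, in muscle from -0.71 to 0.21, -2.63 to -0.16, -0.50 to 0.17 and -1.25 to 0.37, and the interactions from -1.11 to -0.19, -4.45 to 1.74, -0.80 to 0.11 and -1.34 to 0.28. Genes that turned were Cox6a2 (-5.61 to 1.06) and Cox7a2 (-0.52 to 0.33) for genotype in aorta, Cox4i2 (-0.41 to 0.51), Cox6a2 (-0.53 to 0.22) and Cox8a (-0.21 to 2.05) in muscle, and Cox4i2 (-0.86 to 0.07), Cox6a2 (-1.22 to 5.49), Cox7a1 (-0.04 to 0.21) and Cox8a (-0.45 to 1.82) in the interaction.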
